A study of Homo sapiens with 6 samples.

Results

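Transcripts of 6 potassium channel genes were followed in Jurkat cells, an established human line from a T cell acute lymphoblastic leukaemia. The genes were KCNH2, KCNA3, KCNN2, KCNN4, KCNK5 and KCNAB2, picked by symbol from a table of 39012 genes, and all 6 had 1 row each. They were picked with results of these libraries known, KCNH2 because an earlier fit had called it higher with SCML4. Their differences between the groups are therefore given as description, without a test. One group of 3 libraries, here called SCML4, was made from cells with stable overexpression of SCML4, which encodes an Scm-like member of the Polycomb proteins. The other group of 3, EV, came from control cells with an empty vector. Both groups had been induced with PMA (100 ng/ml) together with ionomycin (1 µM), over 6 h, so no unstimulated cells enter the comparison. The labels enter the cell type as an ouabain-induced leukaemia line and do not say what ouabain, an inhibitor of the sodium-potassium pump, was used for. Excess SCML4 cannot be told apart from any other difference between the cell populations of the groups. The labels name neither the vector's promoter nor whether each line was a clone or a pool. Whether the replicates were separate cultures is not in the labels, so spreads and p-values measure only these libraries and may be technical.

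Potassium channels set the membrane voltage of a T cell. By letting potassium out they keep the inside negative, which keeps up the driving force for calcium through store-operated channels after the receptor, or here ionomycin, has raised calcium. KCNA3 (Kv1.3) opens on depolarization and is the classical delayed rectifier of human T cells and of Jurkat. KCNN4 (KCa3.1) and KCNN2 (SK2) open when calcium binds their calmodulin, and SK2 is the calcium-activated type known from Jurkat cells. KCNK5 (TASK-2) belongs to the leak channels with a doubled pore domain. KCNAB2 is a cytoplasmic beta subunit that binds Kv1 channels. KCNH2 (hERG, Kv11.1) is the rapid delayed rectifier of the heart, and it is also known from leukaemia cells. Induction itself can raise some of these genes, which cannot be read here because both groups were induced.

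A start region of KCNH2 is shown because it is the gene with separate groups, beside that of KCNN4, the gene with the fewest reads. RefSeq on GRCh38.p14 gives KCNH2 5 windows of 300 bases around annotated starts, and the table of levels, with 1 value per gene, does not tell which start was used. The innermost window is given 5′ to 3′ on the minus strand. Capitals mark GGGCGG or its reverse complement CCGCCC, the core of the GC box bound by SP-family factors, searched on both strands.
KCNH2 innermost start, chr7:150955755-150956054: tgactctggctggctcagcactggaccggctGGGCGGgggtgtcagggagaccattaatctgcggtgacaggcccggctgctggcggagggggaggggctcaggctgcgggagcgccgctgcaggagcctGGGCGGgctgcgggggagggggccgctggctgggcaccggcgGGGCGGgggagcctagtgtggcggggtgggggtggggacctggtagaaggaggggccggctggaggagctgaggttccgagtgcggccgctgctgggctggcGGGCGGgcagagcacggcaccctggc
KCNN4 start, chr19:43780924-43781223, minus strand: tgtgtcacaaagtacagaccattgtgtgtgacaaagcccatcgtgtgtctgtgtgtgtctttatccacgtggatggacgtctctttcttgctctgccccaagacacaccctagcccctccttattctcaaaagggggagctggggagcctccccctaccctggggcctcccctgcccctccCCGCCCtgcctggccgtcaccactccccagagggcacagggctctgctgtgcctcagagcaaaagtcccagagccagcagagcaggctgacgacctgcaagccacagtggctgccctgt
The innermost KCNH2 window was 75.3% G and C, above 91.0% of all 35116 windows of that length, and held 22 CpG dinucleotides and 4 GC boxes. The windows of KCNH2 were not alike: the 3 between the end ones, from the outer end inwards, were 75.0%, 71.7% and 39.3% G and C, with 2, 5 and 0 GC boxes. KCNN4's window was 60.7% G and C with 6 CpG and 1 GC box. The single window of KCNK5 held 3 GC boxes and the 3 windows of KCNA3 held 2, 0 and 0, while the single window of KCNN2 and all 4 windows of KCNAB2 held 0. A GC box stood in 45.0% of all windows. The longer letters GCGTGGGCG, the site of EGR factors, were in neither window shown, on either strand, and in 0.795% of all windows. GGAAA, the core bound by NFAT, matched 0 times on either strand in the innermost KCNH2 window and in that of KCNN4, but 0, 2 and 5 times in those 3 KCNH2 windows between the end ones, and 61.2% of all windows held it.

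Libraries held 8953671 to 10336597 reads, recovered from the deposited FPKM, and 0 reads in a library leaves room for up to 3 reads, which is 0.29 to 0.335 CPM (reads per 1000000 of the library). SCML4 itself had 570, 657 and 506 reads in the SCML4 libraries, against 7, 2 and 1 in the EV libraries. The T cell genes CD3D, CD3E, CD3G, CD247, CD2, CD5, CD7, CD28, LCK, ZAP70 and LAT were all detected in every library, with a summed level of 3200 to 3280 CPM in SCML4 and 2880 to 3160 CPM in EV. These sums did not overlap, and their part in the differences given next was not tested. Of 14 markers of other cell types, those at 0 in every library included LYZ, HBB and EPCAM. The summed level of the 14 was 34.3 to 37.2 CPM in SCML4 and 25.6 to 36.6 CPM in EV, most of it from the B cell gene CD79A, at 31.5 ± 1.18 CPM in SCML4 and 26.0 ± 6.43 CPM in EV (mean ± SD, n = 3 each). EV replicate 1 stood apart on the leading principal component, at -30.3 against 2.29 to 8.12 for the other 5 libraries. Its deviation from the mean of the libraries fell with the G and C content of transcripts, with a Spearman coefficient of -0.51 over 14141 genes, which are not independent.

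KCNH2 was higher in every SCML4 library than in any EV library. It had 1041, 1396 and 1264 reads in the SCML4 libraries, against 813, 746 and 886 reads in the EV libraries. In CPM these were 115, 135 and 141 in SCML4 and 84.4, 83.2 and 91.5 in EV, with means of 130 ± 13.8 and 86.4 ± 4.5 (SD, n = 3 each). The lowest SCML4 library was replicate 1, and the EV libraries lay close together. In bulk libraries fewer cells with the transcript and less of it per cell cannot be told apart. The ratio of the means was 1.51, and the difference was 0.58 on the log2(CPM + 1) scale with an SE of 0.092. Of all genes tested, 99.6% had a lower difference. KCNH2 was the single gene of the 6 whose groups did not overlap. Over all 14160 genes tested, the SCML4 values lay wholly above the EV values in 6.29% and wholly below in 5.36%, and since this contrast chose KCNH2 nothing is read from its place there.

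**Figure D1:**
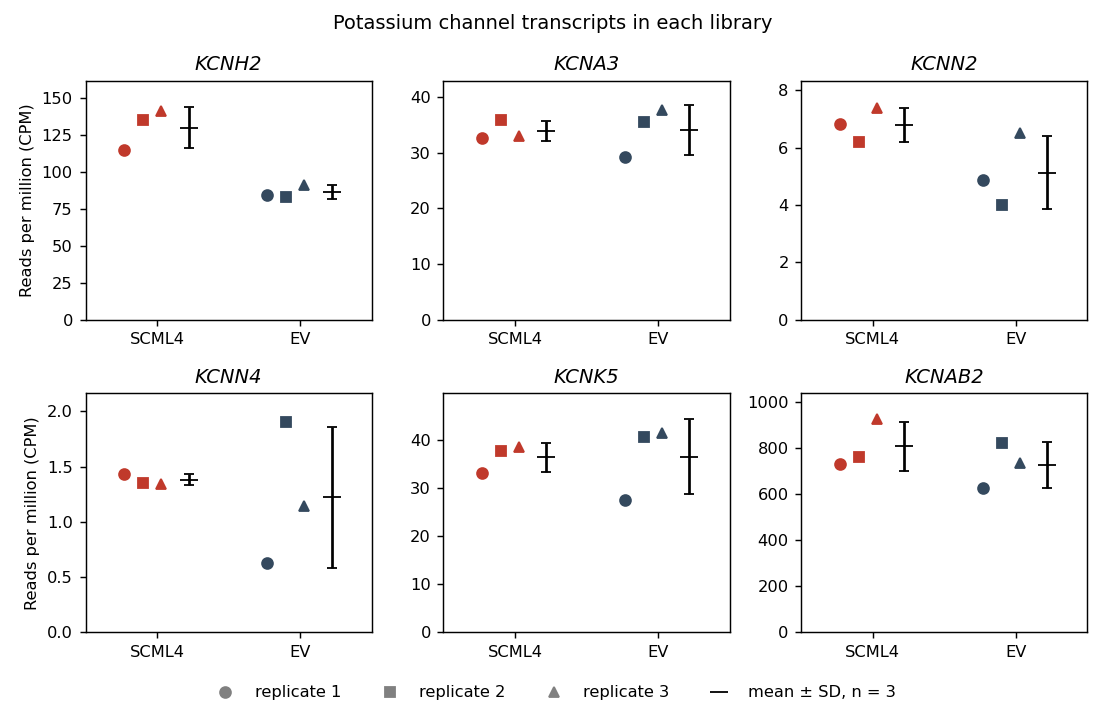
Level of each gene in CPM by group, with 1 point per library, the marker showing the replicate, and the mean ± SD (n = 3) beside it; every axis starts at 0. KCNH2 lies at 115 to 141 in SCML4 and 83.2 to 91.5 in EV, while the points of the other 5 genes overlap between the groups.

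The KCNH2 difference was about as large without the library that stood apart. EV replicate 1 was at 84.4 CPM, between the other EV values, and without it the log2 difference was 0.57. Among the genes tested, 98.5% had a lower G and C content than the longest KCNH2 transcript, at 66.8%. With each library corrected for G and C content and exonic length the log2 difference was 0.48. Leaving out each library in turn gave 0.52 to 0.67, the highest being without SCML4 replicate 1.

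KCNA3, the voltage-gated channel, had nearly equal means in the groups. It had 296, 371 and 296 reads in the SCML4 libraries and 281, 318 and 365 in the EV libraries, or 33.9 ± 1.76 CPM in SCML4 and 34.1 ± 4.42 CPM in EV (SD, n = 3 each). The EV values spanned 29.2 to 37.7 CPM, which contains the SCML4 values, and EV replicate 1 was the lowest. Its log2 difference was 0.00 with an SE of 0.12, and -0.11 without EV replicate 1. Within each library KCNH2 had 3.52, 3.76 and 4.27 reads per KCNA3 read in SCML4, and 2.89, 2.35 and 2.43 in EV. These ratios restate the difference by which KCNH2 was chosen.

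KCNK5, the leak channel, likewise had nearly equal means. Its reads were 300, 391 and 346 in the SCML4 libraries and 266, 365 and 403 in the EV libraries. In CPM it stood at 36.5 ± 2.99 in SCML4 and 36.6 ± 7.84 in EV, with a log2 difference of 0.02 and an SE of 0.14. EV replicate 1, at 27.6 CPM, lay well below the other EV libraries at 40.7 and 41.6. Without it the log2 difference was -0.17.

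The calcium-activated channels were the scarcest of the genes. KCNN2 had 62, 64 and 66 reads in the SCML4 libraries and 47, 36 and 63 in the EV libraries, at 6.80 ± 0.591 CPM in SCML4 and 5.13 ± 1.27 CPM in EV. EV replicate 3, at 6.51 CPM, lay among the SCML4 values of 6.84, 6.19 and 7.37 CPM, so the groups overlapped. The log2 difference was 0.36 with an SE of 0.19, and leaving out each library in turn gave 0.23 to 0.52. In the annotation 77 exonic bases of KCNN2 are shared with an antisense gene, AC010230.1, and whether reads were counted by strand is not given in the sources used here.

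KCNN4 had 13, 14 and 12 reads in the SCML4 libraries and 6, 17 and 11 in the EV libraries. Its level was 1.38 ± 0.0507 CPM in SCML4 and 1.22 ± 0.64 CPM in EV, and the EV values lay on both sides of all SCML4 values. The log2 difference was 0.14 with an SE of 0.26, and without EV replicate 1, which held 6 reads, it was -0.07, against 0.35 without EV replicate 2.

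KCNAB2, the beta subunit, was the most abundant of the genes. It had 6626, 7887 and 8315 reads in the SCML4 libraries and 6018, 7374 and 7129 in the EV libraries, or 808 ± 106 CPM in SCML4 and 728 ± 99.0 CPM in EV. The groups overlapped, with SCML4 replicate 3 highest at 929 CPM and EV replicate 1 lowest at 625 CPM. Its log2 difference was 0.15 with an SE of 0.11, and leaving out each library in turn gave 0.05, without EV replicate 1 or SCML4 replicate 3, to 0.24, without EV replicate 2. KCNAB2 shares 111 exonic bases with NPHP4 on the opposite strand.

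All 6 genes passed the filter of 10 reads on average, and since they were picked with these differences known no test of them is read. Over the whole table limma-trend called 1 of 14160 genes, or 0.00706%, at an adjusted p under 0.05, namely SCML4. Without adjustment 746 of these genes, or 5.27%, had a p under 0.05. The fit that had called KCNH2, limma-voom with library weights, called 14 of 14160 genes, or 0.0989%. The median log2 difference of the 6 genes was 0.145, against 0.008 over all genes tested, and nothing is read from this. Each of the 6 had a higher G and C content than 73.1% to 98.5% of genes tested. Across genes the difference rose with that content (Spearman coefficient 0.34). After correction for G and C content and length KCNH2, KCNA3 and KCNN2 stood at 0.48, -0.09 and 0.32. KCNN4, KCNK5 and KCNAB2 then stood at 0.04, -0.07 and 0.08.

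**Figure D2:**
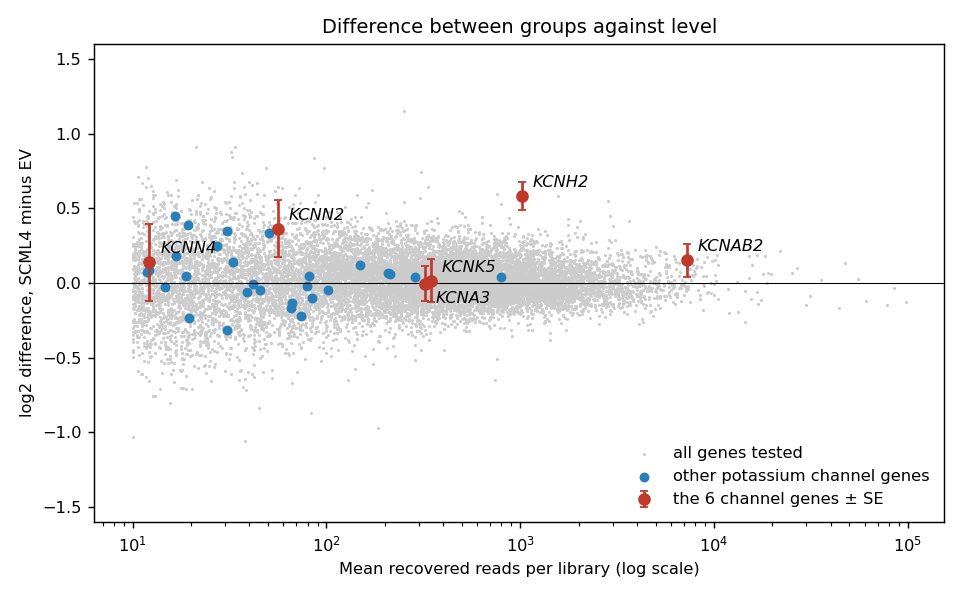
Log2 difference, SCML4 minus EV, against the mean reads per library (log axis) for the genes tested in grey, other potassium channel genes in blue and the 6 channel genes in red with their SE; 1 gene lies outside the vertical range. KCNH2 stands at 0.58, near the top of the genes at its level, whereas KCNA3 and KCNK5 lie at 0.00 and 0.02.

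Levels of different genes were compared per kilobase of annotated exons, since a long transcript gives more reads. The exonic length is that of all exons of a gene in GENCODE 29 and not the length behind the deposited FPKM, which for KCNH2 was 1906 bases against 5877 exonic bases. On this scale KCNAB2 came highest, at 65.5 to 97.4 CPM per kilobase over the 6 libraries. KCNH2 followed at 19.5 to 24.0 in SCML4 and 14.2 to 15.6 in EV, KCNA3 at 12.7 to 14 in SCML4 and 11.4 to 14.7 in EV, and KCNK5 at 8.81 to 10.3 in SCML4 and 7.35 to 11.1 in EV. KCNN2, at 0.619 to 1.14 over all libraries, and KCNN4, at 0.183 to 0.556, were lowest. KCNH2 and KCNA3 overlapped over all 6 libraries and in EV, and not in SCML4. The other neighbours in this order did not overlap. The order depends on the exons counted, and KCNA3 is one gene whose annotated extent differs between GENCODE and RefSeq.

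**Figure D3:**
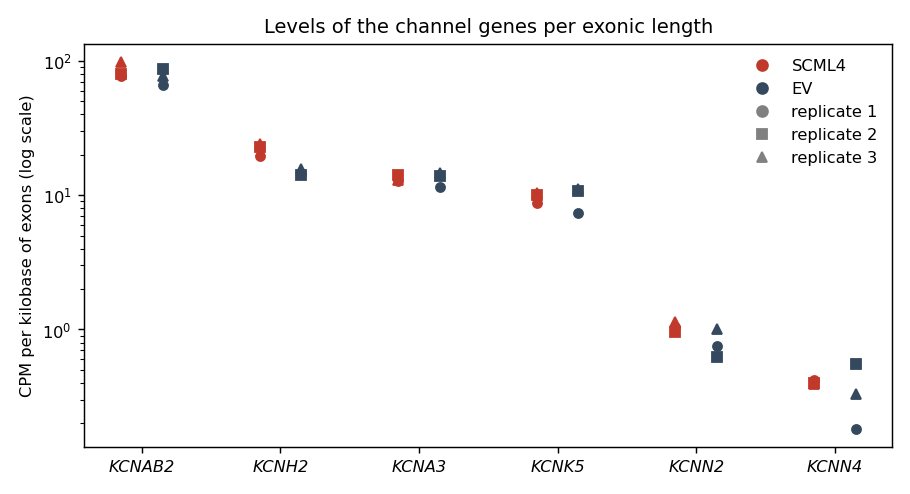
Level of each gene per kilobase of annotated exons (CPM per kilobase, log axis), with 1 point per library coloured by group and shaped by replicate, genes in order of their mean. KCNAB2 lies at 65.5 to 97.4 and KCNN4 at 0.183 to 0.556, and the points of KCNH2 and KCNA3 meet in EV.

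Among pore-forming potassium channel genes KCNH2 had a higher share than the other 4 pore-forming members in each of the 6 libraries. Summed over 78 pore genes, the level was 72.6, 81.6 and 83.3 CPM per kilobase in the SCML4 libraries, and 66.4, 72.6 and 75.4 in the EV libraries. KCNH2 made up 26.9%, 28.1% and 28.8% of this sum in SCML4, and 21.6%, 19.5% and 20.7% in EV. KCNA3 made up 15.4% to 17.5% in SCML4 and 17.1% to 19.5% in EV. Without KCNH2 the sum was 53.1, 58.7 and 59.3 in SCML4 and 52.0, 58.5 and 59.8 in EV. The groups overlapped in both sums. Since this contrast chose KCNH2, its higher shares in SCML4 restate that difference and are not a further result. The shares depend on the exonic lengths used. KCNC4 had 85.8 CPM in SCML4 and 83.4 in EV, against 130 and 86.4 for KCNH2. With 25042 annotated exonic bases, against 5877 for KCNH2, KCNC4 came to only 3.43 and 3.33 CPM per kilobase.

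**Figure D4:**
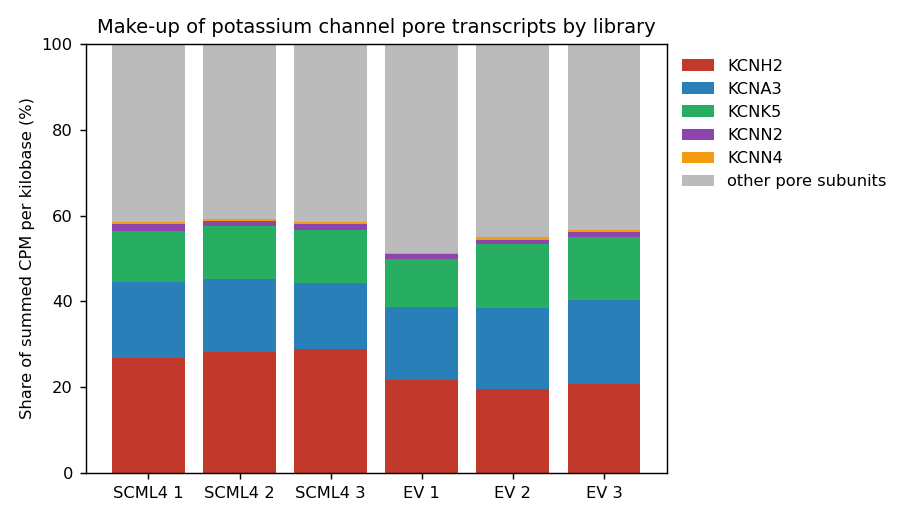
Share of each gene in the summed CPM per kilobase of 78 potassium channel pore genes, with 1 bar per library and SCML4 libraries on the left. KCNH2, chosen from this contrast, takes 26.9% to 28.8% in the SCML4 libraries and 19.5% to 21.6% in the EV libraries. The shares depend on the exonic lengths used.

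The other pore subunits gave 0 calls in limma-trend. Of 73 in the table, 25 were at 0 in every library and 18 passed the filter, of which 10 had positive and 8 negative differences (limma-trend, smallest adjusted p 0.866). At an unadjusted p under 0.05 there were also 0. Their median log2 difference was 0.04, against 0.008 for all genes. The most abundant in CPM was the Kv3 channel KCNC4, at 85.8 ± 7.63 in SCML4 and 83.4 ± 4.33 in EV. The leak channels KCNK1 and KCNK6 stood at 30.7 ± 1.46 and 22.7 ± 1.06 CPM in SCML4, against 29.8 ± 0.825 and 21.6 ± 0.66 in EV. KCNA6, a relative of KCNA3, was at 16.6 ± 3.41 CPM in SCML4 and 15.1 ± 2.19 in EV. The ATP-sensitive inward rectifier KCNJ11 was at 8.61 ± 1.17 CPM in SCML4 and 9.27 ± 0.894 in EV.

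KCNK12 and KCND1 were among the 3 of these pore subunits with the smallest unadjusted p. KCNK12 had 24, 22 and 23 reads in SCML4 and 14, 16 and 16 in EV, with a log2 difference of 0.39 and an SE of 0.21. It was the one gene of those 18 whose groups did not overlap. Groups did not overlap in 11.6% of all genes tested, so nothing is read from this. KCND1, of the A-type Kv4 family, had a log2 difference of -0.22, which was -0.10 without SCML4 replicate 2 and -0.40 without SCML4 replicate 3. Both had an adjusted p of 0.866 or more in limma-trend. Of KCNH2's closest relatives, named here after their values had been seen, KCNH6 had 3, 2 and 3 reads in SCML4 and 5, 3 and 4 in EV. KCNH7 had at least 2 reads, in EV replicate 1 alone.

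Auxiliary subunits gave 0 calls as well. Of the 25 listed in the data, 10 passed the filter, 6 with positive and 4 with negative differences, with a smallest adjusted p of 0.875 in limma-trend and 0 genes at an unadjusted p under 0.05. KCNAB3, the next beta subunit, was the most abundant, at 23.2 ± 3.15 CPM in SCML4 and 22.2 ± 3.16 in EV. KCNIP2 and KCNIP3, calcium-binding partners of Kv4 channels, stood at 10.7 ± 1.34 and 8.37 ± 0.237 CPM in SCML4, against 11.0 ± 0.443 and 8.51 ± 0.69 in EV. KCNMB4, a beta subunit of the BK channel, stood at 8.74 ± 1.08 CPM in SCML4 and 8.40 ± 0.722 in EV. The BK pore gene KCNMA1, named after its values had been seen, had at least 1 read, in SCML4 replicate 1 alone. KCNAB1 lay lower in every SCML4 library, at 1.99, 3.19 and 3.24 CPM against 3.74, 3.57 and 3.72 in EV, with a log2 difference of -0.31 and an SE of 0.21 (limma-trend, adjusted p = 0.875). Without SCML4 replicate 1 that difference was -0.15. Of all genes tested, 5.36% likewise lay wholly below EV. DPP10 had a log2 difference of 0.35, which was 0.15 without SCML4 replicate 2 and 0.53 without SCML4 replicate 1. LRRC38, a BK channel gamma subunit, had one of 0.33, which was -0.06 without EV replicate 1, 0.58 without EV replicate 2 and 0.17 without SCML4 replicate 3. The single-span partners of hERG, KCNE1 and KCNE2, also named after their values had been seen, were scarce. KCNE1 had 11, 4 and 4 reads in SCML4 and 5, 7 and 5 in EV. KCNE2 had at least 1 read, in SCML4 replicate 2 alone.

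Transcripts of proteins reported to fold, modify or anchor these channels gave 0 calls in limma-trend. The list held 25 genes, of which 23 passed the filter and CAV1, named after its values had been seen, had 0 reads in every library. Those that passed had 10 positive and 13 negative differences and a median of -0.026 in log2. At an unadjusted p under 0.05 there were 4 of the 23, against 5.27% of all genes tested, and the smallest adjusted p was 0.866 in limma-trend. The list was chosen with earlier results known, so this count is not read further. FKBP8, a co-chaperone reported for hERG, was at 130 ± 4.98 CPM in SCML4 and 104 ± 18.1 in EV, with a log2 difference of 0.33, which was 0.18 without EV replicate 1. HSP90AA1, the inducible cytosolic HSP90, was at 1400 ± 203 CPM in SCML4 and 1660 ± 112 in EV, a log2 difference of -0.26, which was -0.16 without SCML4 replicate 3. STUB1, the ubiquitin ligase CHIP, was at 28.8 ± 3.94 CPM in SCML4 and 22.1 ± 5.13 in EV, with a log2 difference of 0.38 that was 0.19 without EV replicate 1. HSPA8, HSP90AB1, CANX and YWHAE, the others of highest level, had differences of -0.12 to -0.01.

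Ion transport outside potassium channels gave 0 calls in limma-trend too. Of 28 genes of the sodium-potassium pump and of cation-chloride cotransport 17 passed the filter, 10 with positive and 7 with negative differences. Their most abundant members WNK1, SLC12A7, OXSR1, STK39 and ATP1B3 had log2 differences of -0.11 to 0.12, and SLC12A9 and FXYD2 of 0.22 and 0.27, with adjusted p values of at least 0.866 in limma-trend. Without EV replicate 1 SLC12A9 was at 0.12 and FXYD2 at 0.18, and FXYD2 was also at 0.18 without SCML4 replicate 1. Of 33 genes of calcium entry and other T cell channels 28 passed, 19 with positive and 9 with negative differences. Of these 28, 2 had an unadjusted p under 0.05 in limma-trend, against 5.27% of all genes tested. ATP2A3, the SERCA pump of blood cells, was at 863 ± 46.6 CPM in SCML4 and 817 ± 53.6 in EV. The calcium store sensor STIM1 was at 266 ± 10.4 CPM in SCML4 and 242 ± 19.2 in EV, and the channel ORAI2 at 131 ± 3.88 in SCML4 and 117 ± 7.96 in EV. ATP2B4, PIEZO1 and ATP2A2 differed by 0.07, -0.02 and -0.08 in log2, and the chloride channel gene CLIC1 by 0.20, or 0.13 without EV replicate 1. The chloride channel CFTR had 4, 2 and 4 reads in SCML4 and 15, 17 and 18 in EV, a ratio of means of 0.204. It passed the filter through its EV libraries alone, so its p values, an adjusted 0.737 in limma-trend, 0.014 in limma-voom with library weights and 0.0533 to 0.99 in the other fits, rest on the same difference that let it in. Its log2 difference was -1.03 on log2(CPM + 1), -0.68 with a pseudocount of 2, -2.07 with one of 0.1 and -2.44 in limma-voom with library weights.

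Over these 5 lists together 0 of 96 genes passed limma-trend. An unadjusted p under 0.05 was found for 6, CFTR among them, against 5.27% of all genes tested. Groups did not overlap in 7 genes with SCML4 higher and 6 with SCML4 lower, or 13.5% of the 96, against 11.6% of all genes tested in either direction.

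Of the 3 nearest protein-coding genes on each side of KCNH2, those on one side had too few reads to be tested and none of the other 3 passed. On one side TMEM176B, TMEM176A and AOC1 had 0 to 2 reads in each library. On the other side NOS3, the endothelial nitric oxide synthase, was at 4.89 ± 0.593 CPM in SCML4 and 4.17 ± 0.524 in EV, with a log2 difference of 0.19 and an SE of 0.19. ATG9B, an autophagy gene, was at 10.3 ± 1.95 CPM in SCML4 and 8.44 ± 2.22 in EV, a log2 difference of 0.27 with an SE of 0.20, which was 0.12 without EV replicate 2, 0.15 without SCML4 replicate 3 and 0.45 without EV replicate 3. ABCB8, a mitochondrial ABC transporter, was at 75.5 ± 4.88 CPM in SCML4 and 76.3 ± 6.50 in EV, a log2 difference of -0.01. Groups overlapped in all 3, and their adjusted p values were 0.876 to 0.989 in limma-trend.

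Out of 10129 other genes averaging 100 reads or more, the 5 with the profile nearest to that of KCNH2 over the 6 libraries were CABCOCO1, RUSC2, RFLNB, GAB2 and SCAT1. Nearness was the root mean square distance between log2(CPM + 1) values centred on each gene's mean, which was 0.051 to 0.129. CABCOCO1 was at 31.6 ± 2.04 CPM in SCML4 and 21.3 ± 1.15 in EV. GAB2, a signalling adaptor, was at 18.6 ± 2.17 CPM in SCML4 and 12 ± 1.19 in EV, and RFLNB, a regulator of filamin, at 107 ± 13.1 in SCML4 and 78.7 ± 5.69 in EV. RUSC2 and SCAT1 had log2 differences of 0.48 and 0.38. Since they were chosen for their likeness to KCNH2, their higher values in SCML4 follow from the choice.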

How the data were processed

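RNA-seq of 6 Jurkat libraries was analysed, 3 SCML4 and 3 EV, grouped by sample title. TRIzol extraction and a SMARTer mRNA-seq kit are stated, per the labels' protocols. The submitters' processing notes name FastQC, STAR, SAMtools and the build hg19; not given in the sources used here are the counter, the annotation and the gene lengths. The authors deposited FPKM, reads scaled by a gene length and the library's reads. Because each FPKM value is a whole number of equal steps, 1 per read, the reads, library totals and lengths could be recovered. Of 23897 genes above 0, 100% came out whole within 0.002 of a read, widened for large counts. These include genes with reads in only 1 library, which come out whole whatever their count. For them the count given is the smallest that makes the recovered length whole. Where all 6 counts of a gene share a divisor it can remain hidden. In simulated data of 6000 genes, 99.1% of those with 10 or more reads were recovered exactly. The recovered lengths did not follow those of the named genes (Spearman coefficient -0.005 over 14141 genes), so levels are CPM, reads per 1000000 of the library total. GENCODE 29 on GRCh38 gave lengths, G and C content and gene order only.

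The comparison was SCML4 minus EV on log2(CPM + 1) by limma-trend (limma 3.58.1, R 4.3.3) for genes averaging 10 reads or more, with Benjamini-Hochberg adjustment over 14160 genes and a threshold of 0.05. Tried on simulated data of 14034 genes, with changes set only in genes of at least 50 reads, it recovered 41 of 67 genes at a 1.5-fold change, 61 of 67 at 2-fold and 66 of 66 at 4-fold, with 13 false calls. The simulation changed many genes at once, which eases the adjusted threshold. It drew noise for each gene separately, without a shift shared by genes like that of EV replicate 1. These rates therefore do not carry over to the data. Floors cover counting error only. Replicates differed by more than sampling noise (chi-square per gene 2.6 to 11.1). Members and lists were chosen with earlier results of these data known. Genes were named by rule: SCML4, the members, the 5 of highest CPM and 3 of smallest p per list, 3 coding neighbours of KCNH2 on each side, and its 5 nearest profiles; others are said to have been picked after their values were seen. Some genes and sequences that the rule would name are not reported here.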

Additional observations from a re-analysis of the deposited data

How the results depend on the processing

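The count of genes called was 1 by limma-trend on log2(CPM + 1), SCML4, and moved with the setting. It was 0 on log2(FPKM + 1), 2 with median-of-ratios scaling, 3 with quantile normalization, 19 with library weights, 14 in limma-voom with library weights and 3 after correction for G and C content and length. Leaving out each library gave 1 to 14 calls, the highest without EV replicate 1. With the replicate number as a block 2 genes were called. Same-numbered libraries deviated from their group means with correlations of -0.06, -0.11 and -0.05. Of the SCML4 libraries, 0 of 3 correlated best with their own number. With 3 libraries per group this cannot tell whether same-numbered libraries were handled together, and the labels give no pairing. SCML4 differed by 5.55 in log2 (adjusted p = 1.64e-09 in limma-trend) and by 1.88 on log2(FPKM + 1), with an adjusted p of 0.0619. Genes of the 5 wider lists called numbered 0 in 19 of 20 alternatives and 1, CFTR, in limma-voom with library weights. KCNH2 had log2 differences of 0.48 to 0.67 over 20 alternatives, KCNN2 of 0.23 to 0.52 and KCNAB2 of 0.03 to 0.24. KCNA3 spanned -0.11 to 0.07, KCNK5 -0.17 to 0.12 and KCNN4, over 19, -0.07 to 0.35. Each of these genes, KCNH2, KCNN2 and KCNAB2 included, moved from its limma-trend value by less than the SD between replicates. Leaving out each library in turn, LRRC38 (0.33) spanned -0.06, without EV replicate 1, to 0.58, and ABCB8 (-0.01) spanned -0.07 to 0.05, being positive without EV replicate 3, SCML4 replicate 2 or SCML4 replicate 3. CFTR fell below the filter without any 1 EV library and in the fit of genes averaging at least 50 reads. It could not be called in those alternatives, so their 0 calls say nothing about it. KCNN4 had 6 to 17 reads per library, and detection at such depth was not tested.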
